A study of Mus musculus with 8 samples.

Results

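The cells described here are B lymphocytes from liver metastases, split by which immunoglobulin light chain constant gene gave more transcripts. A cell had to pass quality limits (at least 200 genes and at most 10% mitochondrial transcripts), hold at least 1 transcript each of Cd79a and Ms4a1, and hold none of Cd3e and Csf1r. It was put in the lambda class where the transcripts of Iglc1, Iglc2 and Iglc3 together outnumbered those of Igkc, and in the kappa class where Igkc outnumbered their sum. Of 48214 cells that passed the limits, 7680 were B cells by this gate, and 6992 of these fell in a class, 4724 in the first and 2268 in the second. The other 688 had equal numbers. Because the rule counted constant genes, and because the variable genes of the same cells went against the names lambda and kappa (below), the classes are called Iglc-leading and Igkc-leading here.

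The mice were 2 Vav1CreTet2KO animals, in which Cre under the Vav1 promoter, active across blood lineages, deletes floxed Tet2, and 2 Tet2fl/fl animals, which carry the floxed allele. All 4 received Venus-AKTPM/LOH colorectal cancer cells into the spleen, and live CD45+ leukocytes (stained for CD45.2) were sorted from the liver tumours at day 30. Age and sex were not given in the sources used here. Each mouse gave 1 library of 5′ gene expression, in which a unique molecular identifier (UMI) marks each captured transcript. Whether a light chain class differs in expression, and whether the classes differ between genotypes, are the comparisons made. Values of the 4 mice are given in the order knockout mouse 1, knockout mouse 2, control mouse 1 and control mouse 2.

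A B cell carries 1 antibody, made of a heavy chain and a light chain, and the light chain comes from either the kappa locus or the lambda locus. Kappa rearranges first in most developing B cells, and lambda follows where the kappa attempts fail or are edited away. In laboratory mice the lambda locus holds few segments and serves a small minority of B cells. A complete light chain transcript begins with 1 variable segment (Igkv or Iglv), followed by a joining segment and the constant gene, so an expressed kappa chain holds Igkv with Igkc and an expressed lambda chain holds Iglv with Iglc. Variable segments join downstream, and Iglv1 is known for pairing with Iglc3 and Iglc1, while Iglv2 and Iglv3 mostly use Iglc2.

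The constant genes that set the rule are shown first, because 2 of them are near copies. These are the first 100 coding bases of each in the GRCm39 reference, read 5′ to 3′ on the gene's strand, with capitals at the bases that differ from Iglc2 in a full-length alignment. The 3 lambda genes lie on the minus strand of chromosome 16 and Igkc on the plus strand of chromosome 6.
Iglc2, chr16:19017504-19017603: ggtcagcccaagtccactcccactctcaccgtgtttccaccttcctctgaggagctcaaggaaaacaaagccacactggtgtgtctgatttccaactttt
Iglc3, chr16:18884332-18884431: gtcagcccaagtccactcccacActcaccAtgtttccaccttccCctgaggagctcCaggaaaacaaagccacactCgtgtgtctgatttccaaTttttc
Iglc1, chr16:18880722-18880821: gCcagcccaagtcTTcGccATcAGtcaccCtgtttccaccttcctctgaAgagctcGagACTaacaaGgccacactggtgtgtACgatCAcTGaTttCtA
Igkc, chr6:70703419-70703518 (unmarked): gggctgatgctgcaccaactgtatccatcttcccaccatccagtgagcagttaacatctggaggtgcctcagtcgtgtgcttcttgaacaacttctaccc
Over their whole coding stretch Iglc2 and Iglc3 matched at 303 of 315 aligned positions (96.2%), with an unbroken shared run of 79 bases. Iglc1 matched Iglc2 at 72.3% of positions, and Igkc matched Iglc2 at 51.5%. How the authors' counting divided reads between Iglc2 and Iglc3 cannot be told from the tables, so the split between these copies is uncertain.

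The variable segments of the lambda locus are shown because they give a second reading of the light chain. Capitals in Iglv2 mark the bases that differ from Iglv1. Iglv3 is printed unmarked, since it matched Iglv1 at only 51.5% of positions.
Iglv1, chr16:18903972-18904071: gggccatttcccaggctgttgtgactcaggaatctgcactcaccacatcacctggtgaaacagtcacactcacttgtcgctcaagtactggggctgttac
Iglv2, chr16:19079356-19079455: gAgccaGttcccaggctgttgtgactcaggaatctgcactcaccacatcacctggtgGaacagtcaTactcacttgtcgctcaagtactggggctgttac
Iglv3, chr16:19060181-19060280: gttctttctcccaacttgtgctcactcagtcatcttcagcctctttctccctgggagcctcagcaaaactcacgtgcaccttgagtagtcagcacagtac
Iglv1 and Iglv2 matched at 296 of 305 positions (97.0%), so their split is uncertain in the same way. Against them stand 160 Igkv genes in the count tables.

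The libraries held 10917 to 13870 barcodes and between 57190926 and 91789597 UMIs. Pairs of libraries shared 272 to 303 barcode sequences. The gate gave 3061, 3708, 425 and 486 B cells, so each control mouse rests on far fewer cells. The B cell identity genes Pax5 and Cd79b, which the gate did not use, were detected in both classes of every mouse. Depth was close between classes, with median UMIs per cell of 3311 against 3196, 3113 against 2990, 2405 against 2452.5 and 2646 against 2801.5 (Iglc-leading against Igkc-leading). A doublet caller marked 32, 41, 10 and 13 Iglc-leading and 15, 24, 4 and 1 Igkc-leading cells. A productive T cell receptor contig was found on 1, 3, 0 and 0 Iglc-leading and 1, 2, 0 and 0 Igkc-leading barcodes.

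Light chain constant UMIs were few per cell, which bears on the rule. An Iglc-leading cell held a median of 8, 7, 7 and 10 Iglc UMIs in the 4 mice, and an Igkc-leading cell a median of 5, 5, 5 and 6 Igkc UMIs. The members were chosen by these constant gene UMIs, so the values are a description. Cells just inside the rule, with a lead of 1 UMI, numbered 298, 340, 45 and 25 in the Iglc-leading class and 245, 333, 20 and 20 in the Igkc-leading class. Just outside it stood 255, 363, 46 and 24 ties, of which 57, 64, 7 and 1 held no light chain constant UMI.

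The variable genes went against the constant genes. In the Iglc-leading class 96.3%, 96.6%, 92.4% and 93.4% of cells held an Igkv UMI, with medians of 30, 30, 19 and 17 Igkv UMIs. The Igkc-leading class held Igkv at 99.1%, 99.3%, 98.9% and 98.1% of cells, with medians of 26, 27, 22 and 18. Both classes thus carried kappa variable transcripts in nearly every cell and at similar medians. An Iglv1, Iglv2 or Iglv3 UMI was present in 25.6%, 21.3%, 20.8% and 25.0% of Iglc-leading cells, and in 14.6%, 12.3%, 21.1% and 22.2% of Igkc-leading cells.

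T cells of the same libraries, which do not make light chains, give a background of free RNA. They held at least 1 Cd3e UMI and none of Cd79a, Ms4a1 and Csf1r. Barcodes that picked up those B cell transcripts were thus left out, so this background may be too low. A UMI of Iglc1 to Iglc3 was present in 1.38%, 1.53%, 0.479% and 0.986% of T cells, of Igkc in 2.54%, 2.22%, 5.19% and 2.17%, and of Igkv in 8.80%, 3.71%, 4.63% and 4.80%, at median depths of 3521 to 4369 UMIs. Iglv1 to Iglv3 gave 0.167%, 0.341%, 1.20% and 0.263%. Every light chain share given here for a B cell class lay above the T cell share of the same genes.

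**Figure D1:**
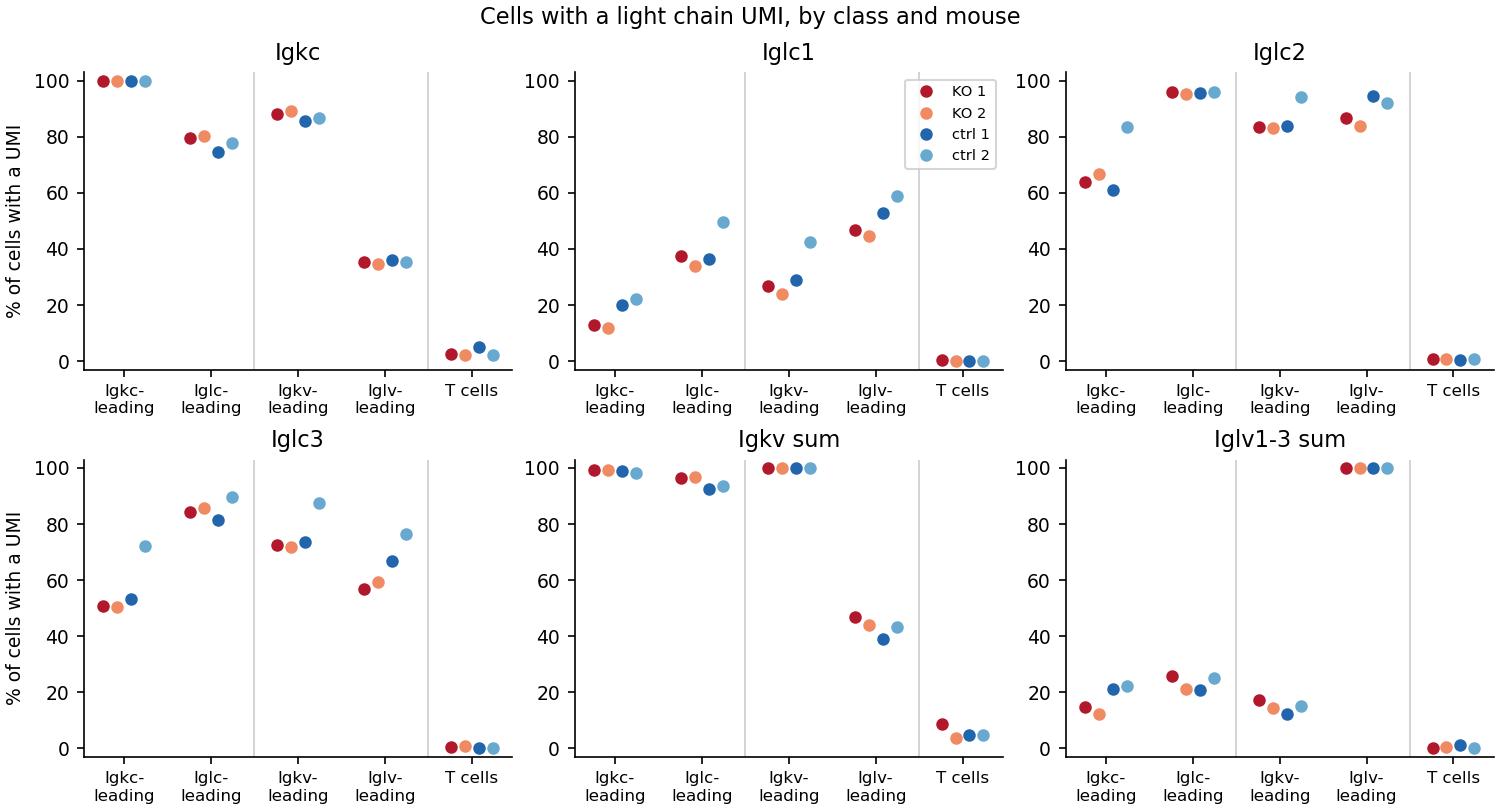
Percent of cells (vertical axis) with at least 1 UMI of Igkc, Iglc1, Iglc2, Iglc3, any Igkv gene or Iglv1 to Iglv3, by cell class and mouse (points). Igkv UMIs are present in over 92% of cells of both the Iglc-leading and the Igkc-leading class in every mouse, against under 9% of T cells.

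To read each cell by its variable genes, an Iglv-leading class (Iglv1, Iglv2 and Iglv3 together above all Igkv) and an Igkv-leading class (the reverse) were defined, a choice made after the values were seen. By this reading 92.6%, 93.9%, 87.5% and 88.0% of the Iglc-leading cells were Igkv-leading (1749 of 1888, 2009 of 2139, 253 of 289 and 359 of 408 cells). The Iglv-leading cells made up 7.15%, 5.89%, 12.1% and 12.0% of the Iglc-leading class. Of the Igkc-leading cells 98.5%, 99.0%, 98.9% and 98.1% were Igkv-leading. The readings gave the same chain for nearly all Igkc-leading cells and opposite chains for most Iglc-leading cells. Most gated B cells were Igkv-leading in any case (2895 of 3061, 3546 of 3708, 387 of 425 and 434 of 486). In the other direction, 135, 126, 35 and 49 of the 158, 148, 36 and 51 Iglv-leading cells were Iglc-leading. Only 12, 8, 1 and 1 were Igkc-leading, and any others were ties.

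By the variable reading most B cells lay near the kappa end, and by the constant reading most lay between the ends. Among cells with at least 5 variable UMIs (2991, 3610, 398 and 464 cells), 88.1%, 90.6%, 85.9% and 80.8% had under 5% of these from Iglv, and 2.94%, 2.38%, 5.28% and 6.90% had over 95% from Iglv. A further 8.93%, 7.04%, 8.79% and 12.3% lay between. These were more cells than at the Iglv end in every mouse (267, 254, 35 and 57 against 88, 86, 21 and 32). By constant UMIs the same middle range held 89.4%, 91.4%, 86.4% and 84.1% of cells with at least 5 of them. The median Igkv-leading cell in every mouse took 100% of its Igkv UMIs from 1 Igkv gene, and the median Iglv-leading cell 100% of its Iglv UMIs from 1 Iglv gene.

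**Figure D2:**
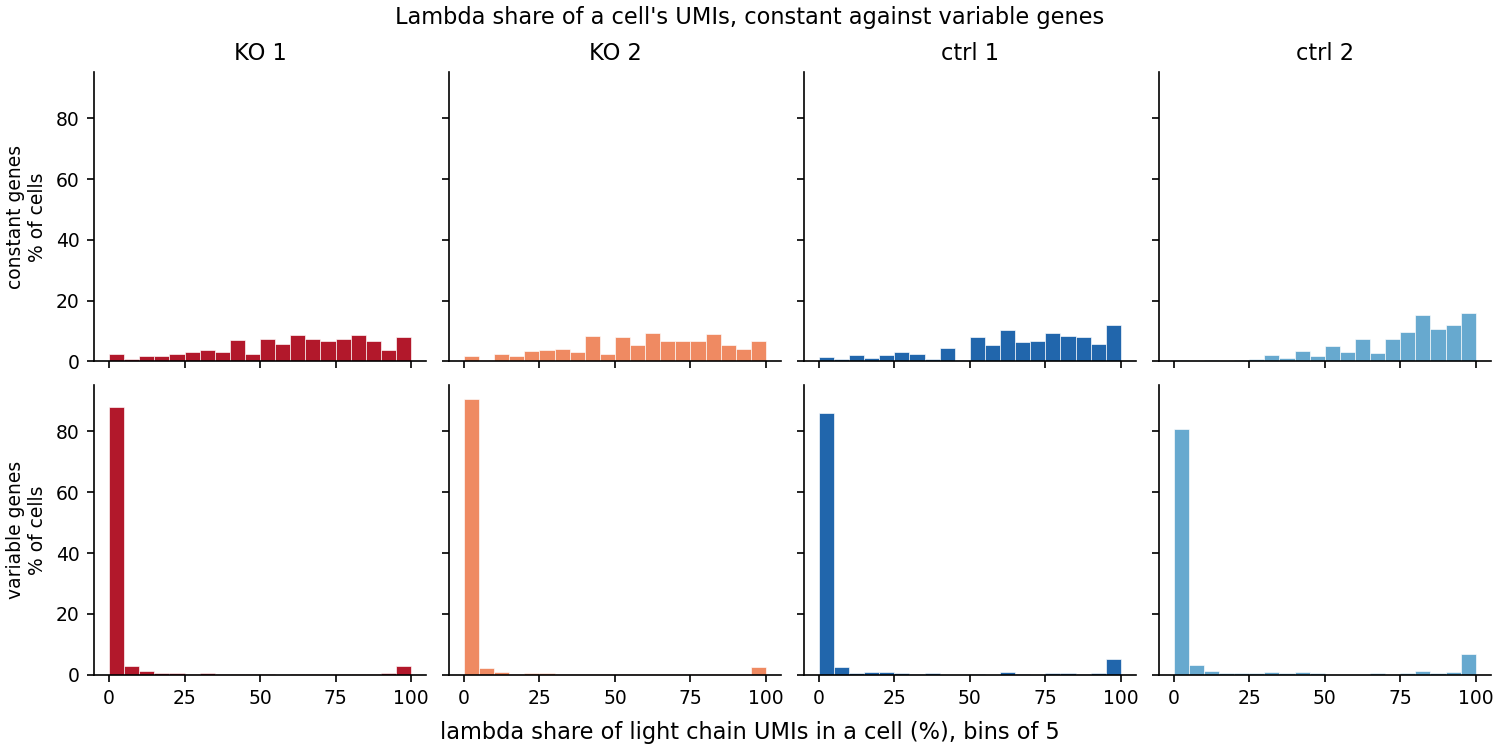
Percent of B cells (vertical axis) in bins of 5% by the lambda share of a cell's light chain UMIs (horizontal axis), from constant genes (top) and variable genes (bottom), 1 column per mouse, for cells with at least 5 such UMIs. Variable genes put 80.8% to 90.6% of cells under 5%, and constant genes spread 84.1% to 91.4% of cells between 5% and 95%.

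Iglc2, the constant gene with the most lambda UMIs, did not follow the variable gene. Its median was 3, 3, 3.5 and 5 UMIs in Iglv-leading cells and 3, 3, 3 and 5 in Igkv-leading cells, and a UMI was present in 86.7%, 83.8%, 94.4% and 92.2% against 83.6%, 83.0%, 84.0% and 94.2%. Igkc did follow it. Iglv-leading cells held Igkc at 35.4%, 34.5%, 36.1% and 35.3%, with a median of 0 UMIs, and Igkv-leading cells at 88.3%, 89.3%, 85.8% and 86.6%, with medians of 3, 3, 2 and 2. Iglc1, the lambda constant gene least like the others in sequence, was present in 46.8%, 44.6%, 52.8% and 58.8% of Iglv-leading against 26.6%, 23.9%, 28.9% and 42.6% of Igkv-leading cells. What makes Iglc2 UMIs as frequent in Igkv-leading cells was not tested.

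The Iglv-leading class held 158, 148, 36 and 51 cells, and the Igkv-leading class 2895, 3546, 387 and 434. Iglv1 led in 63.3%, 64.9%, 50.0% and 56.9% of the Iglv-leading cells. Iglv2 led in 30.4%, 23.6%, 30.6% and 23.5%, and Iglv3 in 6.33%, 11.5%, 19.4% and 19.6%. The order Iglv1, Iglv2, Iglv3 was the same in all 4 mice, with 95% Clopper-Pearson intervals in control mouse 1 (36 cells) of 32.9% to 67.1% for Iglv1 and 16.3% to 48.1% for Iglv2, which overlap. These intervals, like the others below, cover counting error only.

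Iglc2 held the most Iglc UMIs in Iglv2-led cells of all 4 mice, and in Iglv1-led cells of knockout mouse 1 and control mouse 2. In Iglv2-led cells Iglc2 held 47.2%, 58.8%, 63.8% and 55.8% of the Iglc UMIs. In Iglv1-led cells it held 71.0%, 42.8%, 18.7% and 66.7%, and Iglc1 held 13.4%, 45.4%, 78.4% and 14.2%. The high Iglc1 shares of knockout mouse 2 and control mouse 1 rest on single cells. In these mice 1 cell held 58.2% and 90.3% of the Iglc1 UMIs and 57.5% and 94.1% of the Iglv1 UMIs of the Iglv-leading class. At the level of cells, Iglc1 was present in 42.0%, 46.9%, 61.1% and 72.4% of the Iglv1-led cells.

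Kappa usage was spread over many segments. In order of the mean over mice, Igkv1-117 led in 5.28%, 4.96%, 6.98% and 4.61% of Igkv-leading cells (mean 5.46%) and Igkv10-96 in 6.36%, 5.16%, 3.36% and 6.45% (mean 5.33%). Igkv10-96 led in more cells than Igkv1-117 in 3 of 4 mice, all but control mouse 1. Igkv1-135 led in 4.91%, 4.20%, 5.94% and 5.53%. Igkv1-110 led in 3.62% to 4.28% and Igkv6-17 in 3.07% to 3.62%. The ranges over mice of neighbours in this order overlapped for the first 4 genes. Ranked by summed UMIs in the Igkc-leading class, the order was another, and single cells weighed heavily. The 6 genes with the highest mean there were Igkv12-98, Igkv19-93, Igkv3-4, Igkv1-110, Igkv4-91 and Igkv1-135. In these, 1 cell held between 21.5% and 76.5% of the gene's UMIs. Igkv12-98 reached 40038.9 CPM (counts scaled to a common library total) in the Igkc-leading cells of control mouse 1 and was at 0 in those of control mouse 2.

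The share of Iglc-leading cells among the classed cells was 67.3% and 63.9% in the knockout mice and 76.3% and 88.3% in the controls. Both control mice lay above both knockout mice. The means were 65.6% ± 2.36 (SD, n = 2) and 82.3% ± 8.53 (SD, n = 2), a difference of -16.7 percentage points (two-sided exact permutation test over mice, p = 0.33, the smallest that 2 against 2 mice allow).

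By the variable genes the Iglv-leading share was 5.18% and 4.01% in the knockout mice and 8.51% and 10.5% in the controls. The 95% Clopper-Pearson intervals were 4.42% to 6.02%, 3.40% to 4.69%, 6.03% to 11.6% and 7.93% to 13.6%, so those of control mouse 1 and knockout mouse 1 nearly touch. The means were 4.59% ± 0.83 (SD, n = 2) and 9.51% ± 1.42 (SD, n = 2), a difference of -4.92 points with the same exact permutation p of 0.33. Adding constant and variable UMIs of each locus gave 6.63% ± 1.14 and 17.7% ± 7.52 (SD, n = 2 each), and -11.1 points. All 3 readings put the knockout mice lower, and none can pass a threshold of 0.05 with this number of mice.

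**Figure D3:**
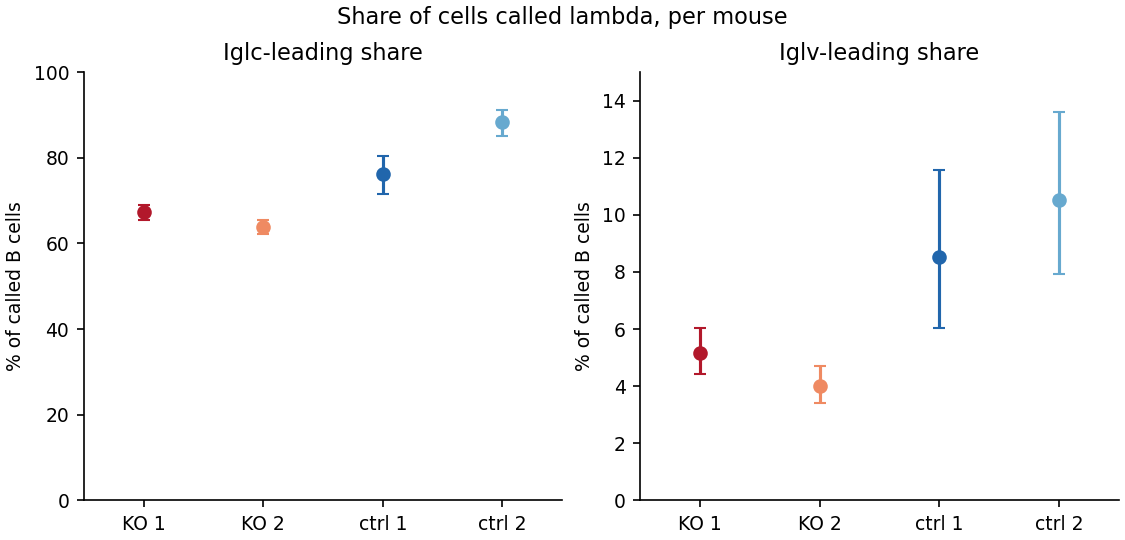
Share of Iglc-leading cells (left, axis 0 to 100%) and of Iglv-leading cells (right, axis 0 to 15%) in each mouse, with 95% Clopper-Pearson bars. Both control mice lie above both knockout mice in each panel, and the levels differ by reading, 63.9% to 88.3% against 4.01% to 10.5%.

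Cd9 is high on marginal zone and B1 cells and Fcer2a (CD23) marks follicular B cells, so cells with 1 and not the other give a look at subsets. Among cells with Cd9 and no Fcer2a the Iglc-leading share was 78.8%, 61.8%, 72.0% and 75.0% (165, 157, 25 and 32 cells). Among cells with Fcer2a and no Cd9 it was 69.3%, 66.5%, 79.4% and 89.4%. The difference was positive in knockout mouse 1 and negative in the other 3 mice, with a mean of -4.27 points (two-sided exact sign-flip permutation over 4 mice, p = 0.5, where 0.13 is the smallest possible). The direction turned (0.272 points) when plasma-marker cells were left out, which are cells with at least 2 of the plasma cell genes Sdc1, Jchain, Prdm1 and Tnfrsf17. By the variable genes the Iglv-leading share was 8.72% against 4.26%, 5.99% against 3.49%, 14.3% against 7.98% and 12.5% against 12.3%, with 15, 10, 4 and 4 Iglv-leading cells among the Cd9 cells. It was higher in the Cd9 cells of all 4 mice, by a mean of 3.36 points (exact sign-flip p = 0.13), and the difference in control mouse 2 was near 0. With cells thinned to 1000 UMIs it was higher in only 2 of 4 mice (mean 1.11 points, exact sign-flip p = 0.75).

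Class switching replaces the IgM and IgD heavy chain constant genes by those of IgG, IgA or IgE. A switched gene led among the heavy chain constant UMIs in 1.22%, 2.62%, 0.749% and 0.804% of Iglc-leading cells and in 2.42%, 3.29%, 11.4% and 4.08% of Igkc-leading cells. The Igkc-leading class was higher in all 4 mice (mean difference, Iglc-leading minus Igkc-leading, -3.95 points, exact sign-flip p = 0.13), and the control values rest on 9 of 79 and 2 of 49 Igkc-leading cells. That direction was not kept in every mouse. With cells thinned to 1000 UMIs the differences were 0.073, 0.313, -6.90 and 0.613 points (mean -1.47, exact sign-flip p = 1), so control mouse 1 alone was lower in Iglc-leading cells. Without plasma-marker cells the mean was -1.67 points (exact sign-flip p = 0.5), with control mouse 2 at 0.538. Between the classes of the variable reading the mean difference was 0.159 points (exact sign-flip p = 1). Plasma-marker cells made up 1.53%, 1.08%, 6.67% and 7.41% of the Igkc-leading class (14, 13, 6 and 4 cells). In the Iglc-leading class there were 2, 7, 1 and 1 such cells.

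For expression, the UMIs of each class were summed per mouse and compared within mice by edgeR's quasi-likelihood test with the mouse as a block and Benjamini-Hochberg adjusted p-values. Levels are CPM of these sums, and changes are log2 ratios. Light chain genes and the gate genes were used by the rule or lie on the same transcripts, so they are left out of the counts. Of 9259 other genes tested, 60 passed an adjusted p of 0.05 (0.648%), with 42 higher in Iglc-leading cells (0.454%) and 18 lower (0.194%). DESeq2 called 66 higher and 104 lower. With each mouse left out in turn the counts were 17, 31, 30 and 33.

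Some B cell identity and receptor genes were higher in Iglc-leading cells. Cd79b, the signalling partner of Cd79a in the receptor, stood at 1250, 1210, 1091 and 1394 CPM in Iglc-leading and 758, 734, 559 and 765 CPM in Igkc-leading cells. No Iglc-leading value overlapped an Igkc-leading one, and the change was 0.82 ± 0.078 (SE, log2, edgeR adjusted p = 0.000109). Of 14 B cell identity genes 3 rose, Cd79b, Fcmr and Blk, beside a list median of 0.36 on the log2 scale against 0.012 over all genes. Fcmr, a receptor for IgM, was at 859, 870, 785 and 1090 against 655, 693, 493 and 746 CPM (log2 change 0.48). Blk, a kinase of the Src family in B cells, was at 283, 274, 318 and 284 against 212, 202, 207 and 189 CPM (0.51). Of 20 receptor signalling genes 2 rose, Cd79b and Ptpn6. Ptpn6 encodes the inhibitory phosphatase SHP-1 and changed by 0.66 (adjusted p = 0.0363).

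Other named genes that rose have varied known roles. Ltb, the membrane partner of lymphotoxin, was at 370, 407, 328 and 719 against 193, 249, 132 and 276 CPM (log2 change 1.07, edgeR adjusted p = 0.000494). The heat shock genes Hspa1a and Hspa1b were higher in Iglc-leading cells of each mouse, by 1.16 and 1.00. Hspa1a ranged from 377 to 864 CPM against 124 to 512 CPM, so the classes overlap between mice and separate within them. Bcl2, the survival factor, rose by 0.64 (adjusted p = 0.0499). Il12a, Kmo, Cyb561a3 and Ms4a6c rose by 1.34, 0.80, 0.79 and 0.81. Bcl2 and Ms4a6c did not pass without doublets (edgeR adjusted p = 0.0622 and 0.065), and each of the 2 lost its call with other settings too.

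Of 13 B1 cell genes tested 2 rose, Zbtb32 and Fcrl5, at low levels, and DESeq2, whose own filter gave neither an adjusted p, called 0 of the list. Zbtb32 was at 14.7, 12.9, 17.5 and 10.5 against 3.82, 4.64, 12.6 and 0 CPM (1.60). Fcrl5 was at 16.2, 14.0, 17.5 and 19.6 against 5.19, 5.28, 15.7 and 4.61 CPM (1.40). Sox4, a transcription factor of immature B cells and 1 of 10 transitional genes tested, rose by 1.57 (17.9, 8.52, 13.1 and 21.8 against 3.55, 4.01, 9.42 and 9.21 CPM). The follicular gene Fcer2a was at 308, 315, 265 and 204 against 278, 270, 191 and 152 CPM and did not pass (edgeR adjusted p = 0.23). Cd38 rose by 0.68, and the macrophage marker Adgre1 by 2.17 at 11.3 CPM or less. Without doublets Adgre1 did not pass (edgeR adjusted p = 0.065). Summed macrophage markers were at 581, 551, 1035 and 1395 against 544, 594, 761 and 568 CPM, and their part in the Adgre1 change was not tested.

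Plasma cell genes were lower in Iglc-leading cells. Tnfrsf17, the survival receptor BCMA of plasma cells, was at 0.245, 0.237, 1.09 and 0.753 against 6.82, 4.43, 47.1 and 41.5 CPM (log2 change -4.82, edgeR adjusted p = 9.94e-05). Fkbp11, a folding enzyme of the secretory pathway, was at 3.18, 3.67, 14.2 and 0.753 against 34.7, 22.4, 229 and 101 CPM (-3.48, adjusted p = 0.0395). These were the 2 of 12 plasma cell genes that passed, beside a list median of -1.74. 6 were lower at an unadjusted p of 0.05, and DESeq2 called 8. Jchain, which links IgM and IgA chains, was at 4.53, 220, 797 and 65.5 against 3821, 949, 11317 and 6047 CPM and did not pass (adjusted p = 0.47). The rule placed plasma-marker cells, too, by their light chain constant UMIs. By variable genes 15, 16, 6 and 5 of them were Igkv-leading and 1, 4, 1 and 0 Iglv-leading. How far this placement set the differences was not tested. Plasma-marker cells gave 8.85%, 6.46%, 34.8% and 31.6% of all UMIs of the Igkc-leading sums. Leaving them out removed Tnfrsf17, which is among the genes that define them, and Fkbp11 from the tested genes. Without these cells 86 genes passed, and 40 of the 60 were among them.

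The other lower genes shared this pattern in part. H1f0, a linker histone, fell by 2.13 on the log2 scale, and AI506816, H1f3, Ppa1, Rps27l, Dusp4, Slamf7 and Selenok fell by 0.60 to 1.04. None of these 8 passed without plasma-marker cells, where the edgeR adjusted p ranged from 0.0867 for AI506816 to 0.982 for Slamf7, whose sign also turned (0.0354). Prg2 fell by 5.71, with 60.3% of its UMIs from 1 cell. Among the higher genes, Cd79b (0.69), Hspa1a (1.04), Ltb (0.91), Fcmr (0.29), Zbtb32 (1.58), Fcrl5 (1.32) and Bcl2 (0.57) still passed without those cells, as did Sox4 (adjusted p = 0.0191), and Blk did not (0.33, adjusted p = 0.091). None of 16 receptor activation genes passed in the full sums, where 3 were lower at an unadjusted p of 0.05 and DESeq2 called 2. 3 were lower without plasma-marker cells.

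**Figure D4:**
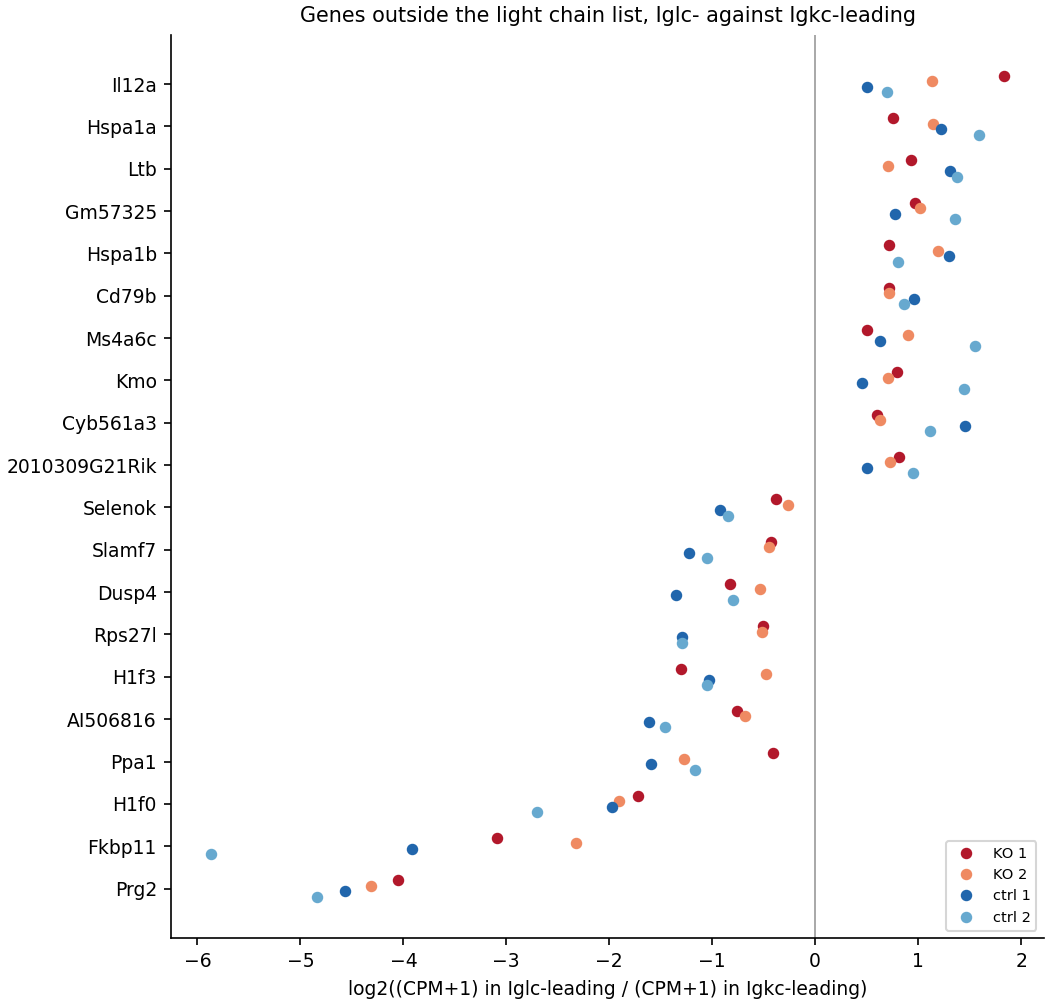
Log2 ratio of Iglc-leading to Igkc-leading CPM (1 CPM added to each) for named genes, 1 point per mouse. Cd79b and Ltb lie above 0 and Fkbp11 below 0 in all 4 mice.

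Among the higher genes, 1 lies at a light chain locus itself. 2010309G21Rik, a long noncoding RNA at chr16:18870082-18925657 on the plus strand, spans Iglc1, Iglc3 and Iglv1 on the other strand, and rose by 0.77 in Iglc-leading cells (88.8, 78.4, 85.2 and 152 against 50.0, 47.1, 59.6 and 78.3 CPM). Whether the counting used strand was not given in the sources used here, so its reads may not be separable from those of the rule's genes. It is 1 of the 42 genes counted as higher.

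The variable reading gave another set. Between Iglv-leading and Igkv-leading cells 20 of 7125 genes other than the light chain and gate genes passed (0.281%), with 9 higher in Iglv-leading cells (0.126%) and 11 lower (0.154%). DESeq2 called 8 and 9, and without control mouse 1 edgeR called 31. The Iglv-leading sums hold only 36 and 51 cells in the controls. Iglc3 was lower in Iglv-leading cells, at 433, 377, 494 and 606 against 601, 607, 665 and 989 CPM (log2 change -0.57, edgeR adjusted p = 0.000376). Iglc2 was at 1172, 1195, 1361 and 1687 against 1177, 1079, 1466 and 1932 CPM, a change of -0.04 (adjusted p = 1).

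Some activation genes were lower in Iglv-leading cells. Of 16 receptor activation genes, which B cells switch on after antigen contact, 3 fell, Fos, Cd83 and Myc, beside a list median of -0.17 against -0.0037 over all genes. Fos was at 462, 316, 502 and 335 against 558, 502, 903 and 386 CPM (log2 change -0.50). Cd83 was at 985, 1106, 1183 and 809 against 1207, 1270, 1762 and 941 CPM (-0.32). Myc was at 154, 203, 227 and 164 against 221, 222, 468 and 312 CPM (-0.60, edgeR adjusted p = 0.0375). Each was lower in Iglv-leading cells of every mouse by a fraction of its level. DESeq2 called Cd83 alone of the list, and edgeR called none of the 3 without control mouse 1. Over all 10 alternatives Fos, Cd83 and Myc were called in 6, 6 and 5. Satb1, a chromatin organiser and 1 of 12 follicular genes, fell by 0.64 (349, 274, 227 and 88.4 against 439, 401, 405 and 190 CPM). Hmgb2, H2ac8 and Cdk8 fell by 0.62, 1.29 and 0.61.

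The 9 genes that rose included Plac8 and Psap at high levels. Plac8, a small cysteine-rich protein of leukocytes, was at 802, 737, 851 and 562 against 493, 534, 630 and 471 CPM (log2 change 0.47, edgeR adjusted p = 0.00469). Psap, the lysosomal prosaposin, was at 608, 615, 567 and 739 against 420, 457, 476 and 586 CPM (0.39). For both, the classes separated within each mouse. Actn1, an actin crosslinker, was at 54.9, 24.9, 48.6 and 12.6 against 16.1, 9.30, 8.50 and 10.2 CPM (1.63). Ahnak, 1 of 12 B1 genes tested, rose by 0.56, Tubb2b by 1.03 and Ccdc28b by 1.32. Over all 10 alternatives Plac8, Actn1 and Ccdc28b were each called in 8, Tubb2b in 5, Psap in 4 and Ahnak in 2. Without plasma-marker cells (1, 4, 1 and 0 Iglv-leading and 15, 16, 6 and 5 Igkv-leading cells) 35 genes passed, 17 of them among the 20. Ahnak, Cdk8 and Ighv1-52 then missed, with adjusted p of 0.0835, 0.302 and 0.72.

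Gm30211, a long noncoding RNA at chr6:70695829-70730454, contains Igkc on the same strand. It was at 274, 161, 373 and 177 against 619, 584, 1094 and 922 CPM (log2 change -1.71, edgeR adjusted p = 0.0357), and its reads may not be separable from those of the kappa locus. It is 1 of the 11 genes counted as lower. The heavy chain segments Ighv1-18 and Ighv1-52 fell by 1.57 and 2.20, and 57.6% of the Ighv1-52 UMIs came from 1 cell.

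**Figure D5:**
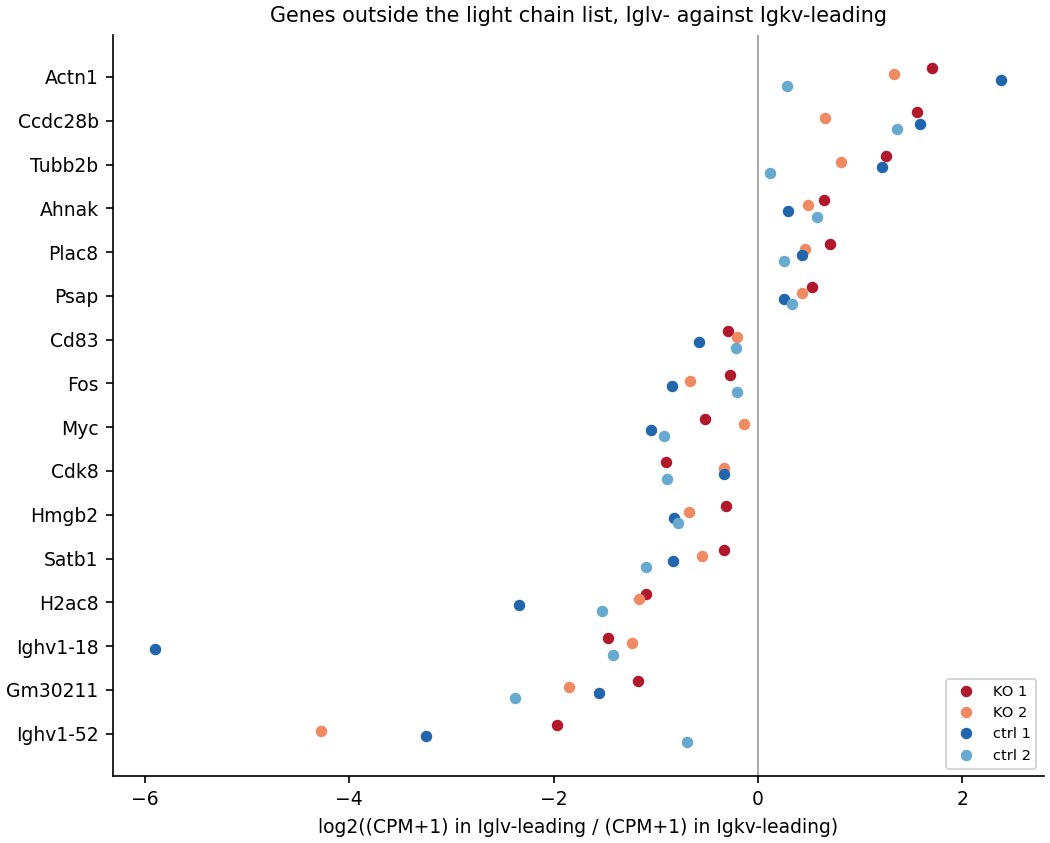
Log2 ratio of Iglv-leading to Igkv-leading CPM (1 CPM added to each) for named genes, 1 point per mouse. Plac8 and Psap lie above 0 and Fos, Cd83, Myc and Satb1 below 0 in all 4 mice.

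Genotype was compared within each class over 2 mice against 2. In Iglc-leading cells 77 of 10727 genes passed (0.718%), 6 higher in knockout mice (0.0559%) and 71 lower (0.662%). Without doublets and barcodes with a T cell receptor contig 2 passed, both among the 77, and without control mouse 1 or control mouse 2 the count was 1099 or 116. Tgfbr1, a receptor chain for TGF-beta, was at 64.1 and 54.1 CPM in knockout and 22.9 and 15.7 CPM in control mice (log2 change 1.65, edgeR adjusted p = 0.0268). Pltp, Gphn, Cdk8 and Gm11808 rose by 0.84 to 1.70.

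Lower in knockout Iglc-leading cells were 1 of 7 macrophage markers tested (Lyz2), 1 of 7 neutrophil markers (Mmp9) and 2 of 20 proliferation genes. Chil3, a macrophage product, was at 0.646 and 2.12 CPM in knockout and 117 and 223 CPM in control mice (log2 change -6.92, edgeR adjusted p = 0.0105). Lyz2, the lysozyme of macrophages and neutrophils, was at 35.6 and 68.8 against 561 and 945 CPM (-3.85). Fn1, Fcgr3, Cd14 and Hp fell by 4.08 to 5.65. Ube2c and Ccnb2, genes of mitosis, fell by 2.84 and 2.64. Macrophage markers, 9 or 10 of 10 detected, summed to 581 and 551 CPM in knockout and 1035 and 1395 CPM in control Iglc-leading cells. Neutrophil markers, 7 or 8 of 8 detected, summed to 443 and 249 against 388 and 3618 CPM. Their part in these changes was not tested, and without doublets Ube2c passed (edgeR adjusted p = 0.0127). The other 13 genes named here for Iglc-leading cells, Tgfbr1 among them, did not pass then (adjusted p from 0.0675 to 0.56).

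In Igkc-leading cells 195 of 8884 genes passed (2.19%), 40 higher in knockout mice (0.45%) and 155 lower (1.74%). Under library totals without TMM scaling the split was 143 and 140, with the median of all genes at 0.222 against 0.047 on the log2 scale. Without plasma-marker cells 24 passed, all among the 195, and without knockout mouse 2, control mouse 1 or control mouse 2 the counts were 122, 468 and 384. Of 12 plasma cell genes 6 fell, with a list median of -2.21. Xbp1, the transcription factor of secretory cells, was at 154 and 94.8 CPM in knockout and 744 and 471 CPM in control mice (-2.29, edgeR adjusted p = 0.00323). Sdc1, the plasma cell surface marker CD138, was at 19.3 and 9.62 against 67.7 and 61.6 CPM (-2.20). Without plasma-marker cells neither passed (adjusted p = 0.488 for Xbp1 and 0.917 for Sdc1), and such cells were 1.53% and 1.08% of the class in knockout and 6.67% and 7.41% in control mice. Sdc1 is among the genes that define these cells, so its loss there is no independent check.

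Antigen presentation genes went the other way in this class. Of 10 MHC class II genes 3 rose, Cd74, H2-Aa and H2-Eb1. Cd74, the invariant chain, was at 24930 and 26304 CPM in knockout and 17741 and 17121 CPM in control mice (log2 change 0.56, edgeR adjusted p = 0.00101). H2-Aa was at 6448 and 6648 against 4373 and 4453 CPM (0.57) and H2-Eb1 at 4265 and 4492 against 3160 and 2869 CPM (0.54). None of the 3 passed without plasma-marker cells, at changes of 0.37, 0.30 and 0.30. Ighm, the IgM constant gene, fell by 1.10 and turned to 0.22 without those cells. Cd9 was at 31.0 and 32.1 against 73.6 and 83.6 CPM (-1.30, adjusted p = 0.0179), and did not pass without plasma-marker cells (0.0527) or without doublets (0.0911).

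Some genotype changes in Igkc-leading cells still passed without plasma-marker cells. Cd7, a surface molecule of T and NK cells, was at 67.2 and 71.3 CPM in knockout mice and at 0 in both controls, at least 14.9-fold higher against a floor of 3 counts over the control group. Xcl1, a chemokine, was at 71.9 and 65.5 against 2.94 and 0 CPM (log2 change 5.24, edgeR adjusted p = 0.000651, and 0.018 without plasma-marker cells). The heavy chain segment Ighv1-9 was at 54.7 and 66.3 against 0 and 4.40 CPM (5.06). G0s2, a lipolysis inhibitor abundant in neutrophils, was at 7.81 and 6.41 against 177 and 154 CPM (-4.55, adjusted p = 0.0782 without doublets), in a class whose neutrophil markers summed to 254 and 475 against 761 and 10547 CPM. T cell markers, 11 of 11 detected in the knockout sums and 6 and 3 of 11 in the controls, summed to 43.3 and 55.0 against 23.7 and 12.9 CPM. NK cell markers summed to 160 and 241 against 158 and 30.1 CPM, and their part in the Cd7 and Xcl1 values was not tested.

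By the variable reading 95 of 11239 genes passed between genotypes in Igkv-leading cells (0.845%), 11 higher in knockout mice (0.0979%) and 84 lower (0.747%), and 87 of the 95 were among the 104 that passed without plasma-marker cells. With each mouse left out in turn the counts were 162, 158, 560 and 160. Most Iglc-leading cells are also in this class, so the comparisons share cells. Tgfbr1 was higher here too, at 67.3 and 57.1 against 22.5 and 17.5 CPM (log2 change 1.64, edgeR adjusted p = 0.0123). Tubb4b, Rrad and Gimap3 rose by 1.18, 1.32 and 1.25. Siglech, a plasmacytoid dendritic cell gene, was at 14.5 and 21.6 CPM and at 0 in both controls, at least 15.8-fold higher. Dendritic cell markers, a list that holds Siglech, summed to 170 and 204 CPM in knockout and 155 and 81.9 CPM in control mice. Their part in the Siglech value was not tested. Cd14, Hp, G0s2 and Mmp9 fell by 3.42 to 4.12, while macrophage markers summed to 559 and 565 against 981 and 1348 CPM and neutrophil markers to 395 and 327 against 430 and 5008 CPM. The fit without doublets was not made for the variable reading. In Iglc-leading cells Tgfbr1, Cd14, Hp and Mmp9 did not pass without doublets (edgeR adjusted p from 0.0728 to 0.304). Iglv1 fell by 2.30 and did not pass without plasma-marker cells (-0.45, adjusted p = 0.402).

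In Iglv-leading cells 14 of 4781 genes passed (0.293%), 9 higher in knockout mice (0.188%) and 5 lower (0.105%). DESeq2 called 0 higher and 3 lower, with 106 at an unadjusted p of 0.05, against 419 in edgeR, and without control mouse 1 edgeR called 80. Nr4a1, an immediate early gene of the B cell receptor, was at 1434 and 1270 CPM in knockout and 666 and 559 CPM in control mice (log2 change 1.14, edgeR adjusted p = 0.0132). Id2 and Id3, inhibitors of E proteins, rose by 2.58 and 1.71. Id3 was at 420 and 240 against 111 and 92.1 CPM. Cxcl2, a neutrophil chemokine, was at 1.58 and 3.41 against 154 and 263 CPM (-6.25), and Cd14 was at 0 in both knockout mice against 154 and 151 CPM, at least 60.6-fold lower. The Cd14 value rests on 41 control counts. Neutrophil markers in this class summed to 12.3 and 3.18 CPM in knockout and 757 and 58.9 CPM in control mice. Macrophage markers summed to 688 and 531 against 448 and 1419 CPM. Their part in the Cxcl2 and Cd14 values was not tested. Leaving out plasma-marker cells, of which this class held 1, 4, 1 and 0, left 2 of the 14. Nr4a1 was then at an adjusted p of 0.0639.

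Whether the class difference itself depended on genotype was tested by an interaction term. For Iglc-leading against Igkc-leading cells 102 of 10117 genes passed (1.01%), 77 with a more positive difference in knockout mice (0.761%) and 25 with a more negative one (0.247%). DESeq2 called 68 and 5, and library totals without TMM scaling 61 and 96. Without plasma-marker cells 7 passed, 6 of them among the 102, and without control mouse 2 the count was 246. Of 12 plasma cell genes 2 passed, Sdc1 and Sec11c, both more positive. Sec11c was at 213 against 289 and 233 against 277 CPM in the knockout mice and at 246 against 932 and 209 against 579 CPM in the controls (difference of log2 changes 1.35, edgeR adjusted p = 0.000762, and 0.927 without plasma-marker cells). For Iglv-leading against Igkv-leading cells 4 of 7997 genes passed (0.05%), 3 more positive and 1 more negative, and DESeq2 called 5 and 0, with 149 at an unadjusted p of 0.05 against 371 in edgeR. With each mouse left out in turn 26, 24, 19 and 28 passed.

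The targeted gene gave no check of the labels in these classes. Tet2 was at 31.6 and 31.5 CPM in knockout Iglc-leading cells and 53.8 and 36.1 CPM in control ones, and at 28.6 and 25.6 against 20.6 and 17.6 CPM in Igkc-leading cells. No genotype comparison of Tet2 passed (edgeR adjusted p = 0.43 and 0.66). Reads of a 5′ library outside the deleted exons say nothing of the deletion.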

How the data were processed

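Cells were grouped by mouse and genotype from the labels, with 2 mice each. The authors deposited UMI counts per gene and barcode for 33696 genes. Per the submitters' processing notes Cell Ranger 8.0.1, Seurat 5.0.1, R 4.4.1 and build GRCm39 were used, and how multi-mapping reads were counted was not given in the sources used here. From the deposited T cell receptor contig tables only barcodes with a productive contig were taken. The gate and the light chain rule were applied to the raw counts of barcodes that passed the limits on genes (200) and mitochondrial UMIs (10%). Doublets (Scrublet through scanpy 1.11.5, 0.8% expected per 1000 cells) were kept and left out in an alternative for the Iglc-leading and Igkc-leading classes only. The members and gene lists were chosen with earlier results of these data known, and the variable reading was added after seeing its values.

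Counts were summed per mouse and class and fitted with edgeR 4.0.16 (glmQLFit and glmQLFTest, robust, filterByExpr, TMM, R 4.3.3) over the whole table, with Benjamini-Hochberg adjustment and a threshold of 0.05. Sums below 10 cells were not fitted. The mouse was a block where classes were compared. DESeq2 1.42.0 was an alternative, as were no TMM, no filter, removal of 390 immunoglobulin genes, stricter cells (500 genes, 5% mitochondrial UMIs), a strict light chain call (at least 3 UMIs and 90% of light chain UMIs), thinning to 1000 UMIs and leaving out each mouse. Shares were tested by exact permutation over mice. CPM are scaled within each fit. Sequences and positions came from the GRCm39 reference and its GENCODE annotation, aligned with Biopython 1.88. The Iglc-leading against Igkc-leading fit and the Iglc-leading genotype fit were run on simulated counts with known changes. These counts had a fixed dispersion, no mouse effect and no cells that dominate a sum, so that run does not cover those features.

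Named genes were the lambda locus genes and Igkc, the 6 Igkv genes with the highest CPM, called genes of the lists (up to 4 a list by p), a fixed set of B cell genes, and the largest called changes in each direction with a mean of at least 20 CPM (10 for class fits with one sign in 4 of 4 mice, 5 for genotype and interaction fits with groups that do not overlap). A selection of these is described.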

Additional observations from a re-analysis of the deposited data

Results flagged for a closer look

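For 10 named genes the class difference (Iglc-leading minus Igkc-leading, log2) differed between genotypes by the interaction test of edgeR. It was more positive in knockout mice for H13 by 2.29, Creld2 by 2.75, Pdia4 by 2.32, Sdc1 by 2.94 and Gm20186 by 2.34. H13, a peptidase of the endoplasmic reticulum membrane, was at 77.5 against 109 and 82.4 against 126 CPM in the knockout mice and at 83.7 against 543 and 62.4 against 502 CPM in the controls. Of these 5, Gm20186 passed without plasma-marker cells (edgeR adjusted p = 0.0442) and did not pass without doublets (0.0614). H13 (0.239), Creld2 (0.888), Pdia4 (0.901) and Sdc1 (0.901) did not pass without plasma-marker cells, and Sdc1 is among the genes that define these cells.

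It was more negative in knockout mice for Chil3 (-3.29), Ighv1-9 (-5.15), Xcl1 (-5.04), Flii (-1.97) and Cd7 (-8.87). Xcl1 was at 44.0 against 75.9 and 51.2 against 69.5 CPM in the knockout mice and at 47.8 against 3.08 and 29.0 against 0 CPM in the controls. The Cd7 value rests on 0 counts in the Igkc-leading cells of both controls, so it depends on the fit's prior count and is no bound. Chil3, Ighv1-9 and Xcl1 passed without plasma-marker cells (adjusted p = 0.00946, 0.00808 and 0.0112).

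For 3 genes the difference between Iglv-leading and Igkv-leading cells differed between genotypes, Ighv9-4 (14.83), Cst3 (1.21) and Hspa5 (0.96). Of the Ighv9-4 UMIs 83.1% came from 1 cell. Cst3, the protease inhibitor cystatin C, was at 908 against 428 and 648 against 373 CPM in the knockout mice and at 292 against 298 and 308 against 431 CPM in the controls. It passed without plasma-marker cells (edgeR adjusted p = 0.000357) and Hspa5 did not (0.225).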

How the results depend on the processing

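Counts of called genes other than the light chain and gate genes moved as follows (edgeR, adjusted p of 0.05). In this paragraph no replicate block means a fit without the mouse as a block, so classes were not compared within mice. For Iglc-leading against Igkc-leading cells the 60 became 170 by DESeq2, 98 without TMM, 404 without a filter, 158 without immunoglobulin genes, 1 with no replicate block and 17 to 33 with a mouse left out. For its interaction with genotype the 102 became 157 without TMM, 196 without a filter, 4 with no replicate block, 7 without plasma-marker cells and 91 to 246 with a mouse left out. For genotype in Igkc-leading cells the 195 became 495 without a filter, 24 without plasma-marker cells and 122 to 468 with a mouse left out. For genotype in Iglc-leading cells the 77 became 127 by DESeq2, 44 under the strict call, 2 without doublets and 77 to 1099 with a mouse left out. For Iglv-leading against Igkv-leading cells the 20 became 128 without a filter, 5 with no replicate block, 35 without plasma-marker cells and 20 to 31 with a mouse left out. For its interaction with genotype the 4 became 27 without a filter, 14 without immunoglobulin genes, 2 without plasma-marker cells, 19 to 28 with a mouse left out, and 0 with no replicate block (edgeR, 291 at an unadjusted p of 0.05, and 5 by DESeq2 with the block). For genotype in Igkv-leading cells the 95 became 200 by DESeq2, 679 without a filter, 151 without immunoglobulin genes and 158 to 560 with a mouse left out. For genotype in Iglv-leading cells the 14 became 3 by DESeq2, 8 without TMM, 140 without a filter, 2 without plasma-marker cells and 15 to 80 with a mouse left out. The causes were not tested.

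The labels do not say that replicate numbers pair mice across genotypes. The correlation of same-numbered deviations was 0.042 in Igkc-leading and 0.015 in Iglc-leading cells. With 2 mice a genotype this is a single contrast per class, so it cannot show whether a pairing exists. With replicate numbers as a block the genotype counts were 219 in Igkc-leading, 98 in Iglc-leading, 181 in Igkv-leading and 62 in Iglv-leading cells. The Iglc-leading share then differed by -16.7 points. The Iglc-leading share kept its direction in all settings run, at -10.6 to -22.7 points, as did the Iglv-leading share, at -3.89 to -4.97 points. The Cd9 against Fcer2a difference ranged from -8.87 to -0.877 points with a mouse left out and turned to 0.272 without plasma-marker cells, and to 3.36, 3.98 (without those cells) and 1.11 (thinned) by the variable reading, where the switched share difference turned to 0.159. The latter was -5.04 to -1.71 with a mouse left out, -18.2 under the strict call, -1.67 without plasma-marker cells and -1.47 thinned, where it turned in 3 of 4 mice. Under the strict call and thinning the Cd9 against Fcer2a difference was -11.5 and -0.916. Slamf7 turned to 0.0354 and Ighm to 0.224 without plasma-marker cells, and Camp in the interaction ranged from -6.85 to 2.60 with a mouse left out, turning without knockout mouse 2. The strict call could not be fitted for class, interaction or Igkc-leading genotype genes, as control mouse 2 then has under 10 Igkc-leading cells.

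Few control B cells, few constant UMIs per cell and 2 mice a group limit these results.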
